A study of Mus musculus with 9 samples.

Results

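Direct targets of p53, 9 in number, and the tumor suppressor gene Cdkn2a were followed by RNA-Seq in whole osteosarcoma tumors of genetically engineered mice. Between the genotypes edgeR called none of the 10 genes, where DESeq2 called Zmat3 and Ccng1 lower in the Myc-knockin tumors. Of all genes tested, edgeR called 2.26% higher and 3.00% lower in those tumors, and DESeq2 called 7.24% lower. The 10 genes were chosen by their symbols in the deposited table of 55367 genes, and all 10 were among the 15365 genes with enough counts to test. Zmat3, Ccng1, Trp53inp1 and Cdkn1a had lower means in the Myc-knockin tumors. Of these 4 only Zmat3 was separated, with every Myc-knockin tumor below every p53-driven tumor, as were 7.54% of all genes tested. Cdkn2a had the higher mean in the Myc-knockin tumors, where M664, M624 and M408 held the 3 highest values of all tumors. Mdm2, Sesn1, Gdf15 and Eda2r had log2 fold changes between -0.02 and 0.28, and that of Phlda3 was -0.43.

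The p53-driven group held 4 tumors with the genotype label Col2.3-Cre/TrpP53fl/+. The Myc-knockin group held 5 tumors whose label joins Cre-Lox-Stop-Lox with the alleles (LSL)-c-MycT58A and p53fl/+. By these labels both groups share one floxed allele of Trp53 and a Cre. The Myc-knockin label does not name the promoter of Cre, and the paper's methods give the osteoblast-specific Col2.3 promoter for both models. The Myc-knockin mice add a Myc allele with the change T58A behind a stop cassette that Cre removes. Neither group is a control with intact p53, so the values compare 2 tumor models that both start from loss of one Trp53 allele in osteoblasts, and the whole tumors also contain cells in which Cre is not active. No age at sampling is given in the sample labels. Each tumor is named by its column in the table, since the labels name no column, and for M351, M9 and M664 the genotype rests on the initial letter of the column name.

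p53 is a transcription factor that is held at a low level by the ubiquitin ligase Mdm2 and accumulates after DNA damage or oncogene activity. It binds DNA as a tetramer and turns on genes that stop the cell cycle, repair DNA, start cell death or limit p53 itself. Cdkn2a encodes p19Arf, which binds Mdm2 and releases p53, and p16Ink4a, which inhibits the kinases Cdk4 and Cdk6 upstream of the retinoblastoma protein. High MYC is a known activator of the Arf branch, and loss of p53 function is frequent in osteosarcoma.

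The Cdkn2a gene is shown first because its counts add up 2 proteins that share no amino acid sequence. In the GENCODE annotation of mm10 it lies on the minus strand of chromosome 4 from 89274471 to 89294653. Transcript Cdkn2a-202, for p19Arf, has its first exon from 89294334 to 89294653 and codes for 169 codons, stop codon not counted. Transcript Cdkn2a-201, for p16Ink4a, has its first exon from 89281986 to 89282192 and codes for 168 codons, stop codon not counted. Both join exon 2, from 89276645 to 89276985, but they read it in different frames. The first 30 coding bases of each transcript, with the start codon in capitals, lie at chr4:89294494-89294523 for p19Arf and at chr4:89282082-89282111 for p16Ink4a.
p19Arf start: ATGggtcgcaggttcttggtcactgtgagg
p16Ink4a start: ATGgagtccgctgcagacagactggccagg
The first 30 bases of the shared exon 2, at chr4:89276956-89276985 on the minus strand, are given with the first complete codon of each frame in capitals.
p19Arf frame: gtGATgatgatgggcaacgttcacgtagca
p16Ink4a frame: GTGatgatgatgggcaacgttcacgtagca
Because the deposited counts are summed over the gene, reads from the 2 transcripts could not be told apart.

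Sites in the promoters are shown because p53 acts on its targets through a response element of adjacent half-sites. RefSeq windows of GRCm38.p6, from 250 bases before to 50 bases after a gene start, were found for 8 of the 10 genes in 12 windows, and Trp53inp1 and Zmat3 had none in the table. The canonical p53 half-site was present without a mismatch in 8.36% of all 32851 windows, and a pair of adjacent half-sites with at most 1 mismatch in 0.067%. Such a pair was found in Cdkn1a and Ccng1, at chr17:29090923-29090952 on the plus strand and chr11:40755457-40755486 on the minus strand. Sesn1 held a pair with 3 mismatches at chr10:41887261-41887290 on the plus strand, and pairs with at most 3 mismatches were found in 1.38% of windows. Mdm2 held a single half-site at chr10:117710930-117710949 on the minus strand. Each is printed with its flanks, and the capitals mark the match.
Cdkn1a: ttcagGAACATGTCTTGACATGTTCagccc
Ccng1: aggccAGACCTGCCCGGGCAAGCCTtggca
Sesn1: ccttcAAGCTTGTTTTTGCTGGCCTggtcc
Mdm2: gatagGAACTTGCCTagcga
The half-site is its own reverse complement, so 1 strand covers both. CACGTG, the E-box read by MYC with MAX, is also the same on both strands. It occurred in the windows of Gdf15 and Eda2r and in 7.15% of all windows. Phlda3, Eda2r, Gdf15 and Cdkn2a had no half-site in these windows. A match describes the letters of a window and does not show binding in the tumors, and the response elements of several targets lie elsewhere in the gene.

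The libraries differed in depth and content. Total counts ranged from 2716322 to 17073285, and 3 counts, chosen as a floor for low values, stood for 0.114 to 2.39 CPM. Single values can lie below this floor. CPM here are edgeR's counts scaled to library size after TMM normalization. In F187, M351, M408 and M9 between 22.7% and 79.3% of the counts fell on 3 genes, against at most 0.0235% in the other 5 libraries. These genes were picked by a name of Gm with a number and a share above 1% in any library. They are called satellite genes here, and their sequence was not checked. In M624 and M664 the nonpolyadenylated RNA Rn7sk had 5.33 and 9.32 CPM of the counts outside those genes, and in the other 7 at least 8858 CPM. As M624 and M664 carry the same genotype, within this pair the library type and the genotype cannot be told apart. The osteoblast markers were present: the 9 marker genes summed to between 43057 and 95587 CPM in the p53-driven tumors and to between 2240 and 24597 CPM in the Myc-knockin tumors, chiefly from Col1a1, and Bglap was at 0 counts in M408 and Bglap2 in M408 and M624. Whole-tumor RNA cannot tell fewer cells of a type from less RNA per cell, and p values here measure the spread between tumors.

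Myc, the gene knocked in, was measured first as a check of the groups. It had 46.2, 43.5, 67.1 and 60.4 CPM in F187, F325, F331 and F368, and 270, 520.3, 144, 1045 and 905 CPM in M351, M408, M9, M624 and M664. Every Myc-knockin tumor was above every p53-driven tumor. The log2 fold change, Myc knockin minus p53 driven throughout, was 3.41 (standard error 0.59, adjusted p = 0.0217, by edgeR, adjusted over all genes tested by Benjamini-Hochberg). Trp53 itself had 8.29, 9.49, 13.5 and 8.87 CPM in the p53-driven tumors in the same order, and 4.92, 37.7, 3.19, 10.1 and 17.4 CPM in the Myc-knockin tumors. The groups overlapped, with the highest value in M408 and the lowest in M9, where only 4 reads were counted. Genomic background, estimated from chemosensory receptor genes, was expected to give 5.03 reads on Trp53 in M9. In M351 it was expected to give 4.55, where 8 reads were counted. Trp53 had a log2 fold change of 0.58 (edgeR adjusted p = 0.569), with a 95% interval from -0.74 to 1.90, and it was -0.07 without M408. Counts over the gene do not show whether the transcript comes from the floxed allele, from the other allele or from cells without Cre activity.

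**Figure D1:**
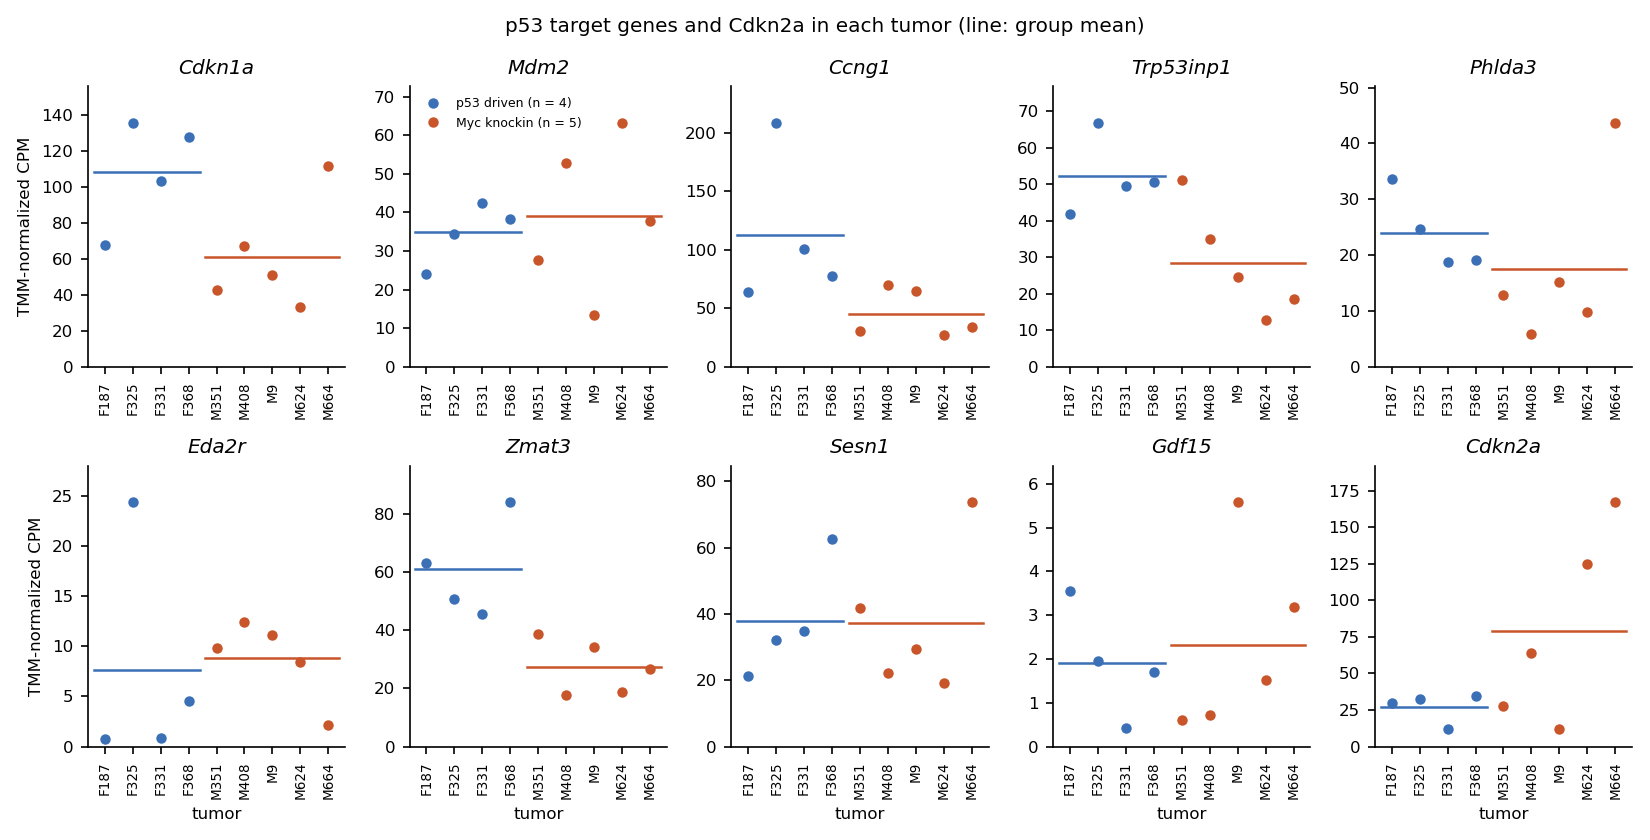
TMM-normalized CPM of the 10 genes (vertical axis, starting at 0) in each of the 9 tumors (horizontal axis), with p53-driven tumors in blue, Myc-knockin tumors in orange and lines at the group means. The groups are separated for Zmat3 alone, and the Cdkn2a values of M624 and M664 stand at 125 and 167 CPM above all others.

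Cdkn1a encodes p21, the inhibitor of cyclin-dependent kinases through which p53 stops the cell cycle. It lies on chromosome 17 from 29090976 to 29100727 on the plus strand and carries the promoter pair printed above. It had 67.5, 136, 103 and 128 CPM in F187, F325, F331 and F368. In M351, M408, M9, M624 and M664 it had 42.5, 67.2, 51.0, 33.5 and 112 CPM. The lowest p53-driven tumor, F187, was above 4 of the 5 Myc-knockin tumors, and M664 lay within the p53-driven range. For Cdkn1a edgeR gave a log2 fold change of -0.82 (standard error 0.37, 95% interval -1.64 to -0.00, adjusted p = 0.185), and a two-sided exact permutation test over all arrangements of the 9 tumors gave p = 0.0556. Its exons share 273 bases with AC167363.2 on the opposite strand, and since the strand setting of the counting is not given in the sources used here, reads of the pair may be mixed.

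Zmat3, also known as Wig1, encodes a zinc finger protein that binds RNA and acts as a tumor suppressor downstream of p53. It lies on chromosome 3 from 32334792 to 32366014 on the minus strand. It had 63.2, 50.9, 45.8 and 84.0 CPM in the p53-driven tumors and 38.8, 17.8, 34.3, 18.6 and 26.7 CPM in the Myc-knockin tumors, in the order given for Cdkn1a. The highest Myc-knockin tumor, M351, was below the lowest p53-driven tumor, F331, and the means were 27.2 ± 9.31 (SD, n = 5) and 61.0 ± 17.02 (SD, n = 4). Its log2 fold change came to -1.18 (standard error 0.32, 95% interval -1.87 to -0.49, edgeR adjusted p = 0.0531), and the two-sided exact permutation p was 0.0159, the smallest that 5 tumors against 4 allow. Zmat3 was the only one of the 10 genes whose groups did not overlap, where 7.54% of all genes tested were lower without overlap. The fraction of its reads expected from genomic background, estimated from chemosensory receptor genes, was 33.1% in M9 and 20.4% in M351, and at most 5.08% in the other libraries.

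Ccng1 encodes cyclin G1, a p53 target that recruits the phosphatase PP2A to Mdm2. It lies on chromosome 11 from 40748552 to 40755311 on the minus strand, and its promoter pair is printed above. Its values were 63.6, 209, 101 and 77.2 CPM in the p53-driven tumors and 30.2, 70.0, 64.5, 27.2 and 33.9 CPM in the Myc-knockin tumors. F325 was the highest of all, and M408 and M9 lay just above F187, so the groups overlapped. This gave a log2 fold change of -1.33 (standard error 0.43, 95% interval -2.26 to -0.39, edgeR adjusted p = 0.0826), and it was -0.85 without F325. F325 also had the highest summed level of 5 skeletal muscle markers, 3725 CPM, while the remaining 8 tumors lay between 2.29 and 1544 CPM. The part of the muscle markers in the Ccng1 value of F325 was not tested.

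Trp53inp1 encodes a nuclear protein that promotes p53 activity in stress and takes part in autophagy. It lies on chromosome 4 from 11156431 to 11174379 on the plus strand. It had 41.9, 66.9, 49.5 and 50.7 CPM in the p53-driven tumors, and 51.1, 34.98, 24.7, 12.7 and 18.5 CPM in the Myc-knockin tumors. M624 and M664 were the lowest, and M351 lay within the p53-driven range. On the log2 scale the difference was -0.90 (standard error 0.38, 95% interval -1.74 to -0.06, edgeR adjusted p = 0.160). Without M624 and M664 it was -0.44.

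Mdm2, the ligase that closes the feedback loop on p53, lies on chromosome 10 from 117688875 to 117710758 on the minus strand. It had 24.1, 34.5, 42.5 and 38.3 CPM in the p53-driven tumors and 27.7, 52.9, 13.5, 63.3 and 37.9 CPM in the Myc-knockin tumors. The 5 Myc-knockin tumors held both the lowest value, in M9, and the highest, in M624. Mdm2 differed by 0.18 on the log2 scale (edgeR adjusted p = 0.805), and the 95% interval, from -0.69 to 1.05, spans values on both sides of 0. In M9 the 17 reads on Mdm2 compare with 6.32 expected from genomic background.

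Sesn1 encodes sestrin 1, which restrains mTORC1 signaling and oxidative stress. It had 21.3, 32.2, 34.9 and 62.6 CPM in the p53-driven tumors and 41.9, 22.2, 29.5, 19.2 and 73.7 CPM in the Myc-knockin tumors. The values of the 2 groups were interleaved, with F368 and M664 the highest, which left a log2 fold change of -0.02 (95% interval -0.99 to 0.95, edgeR adjusted p = 0.986). Phlda3, which encodes a pleckstrin homology protein that restrains Akt, had 33.6, 24.7, 18.8 and 19.1 CPM in the p53-driven tumors and 12.9, 5.86, 15.1, 9.87 and 43.7 CPM in the Myc-knockin tumors. The lowest 4 values of all were Myc knockin, and so was the highest, in M664. Phlda3 had a log2 fold change of -0.43 (95% interval -1.57 to 0.71, edgeR adjusted p = 0.631), -1.14 without M664, and 0.39 without the 4 satellite libraries.

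Eda2r and Gdf15 were the 2 members with few reads. Eda2r, a receptor of the tumor necrosis factor family that binds ectodysplasin A2, had 0.79, 24.3, 0.865 and 4.498 CPM in the p53-driven tumors and 9.85, 12.5, 11.2, 8.46 and 2.20 CPM in the Myc-knockin tumors. F325 was the highest and F187 and F331 the lowest, so the p53-driven tumors held both ends of the scale, with a log2 fold change of 0.15 (95% interval -1.83 to 2.13, edgeR adjusted p = 0.936). Without F325, the tumor with the most muscle marker RNA, it was 2.04 (edgeR adjusted p = 0.209). Of the Eda2r reads, 52.3% in M9 and 41.4% in M351 were expected from genomic background, and F187 had 2 reads where 4.19 were expected. Gdf15, a secreted stress cytokine of the TGF-beta family, had between 1 and 74 reads per library. It had 3.55, 1.94, 0.432 and 1.70 CPM in the p53-driven tumors and 0.616, 0.733, 5.58, 1.52 and 3.20 CPM in the Myc-knockin tumors. The values of Gdf15 overlapped throughout, and in F187, M351 and M9 the floor of 3 counts, 1.19, 1.85 and 2.39 CPM, was of the same order. Gdf15 had a log2 fold change of 0.28 (95% interval -1.56 to 2.12, edgeR adjusted p = 0.865). Without the 4 satellite libraries, among the 5 deeper libraries, it was 0.83 (standard error 0.77, edgeR adjusted p = 0.444).

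**Figure D2:**
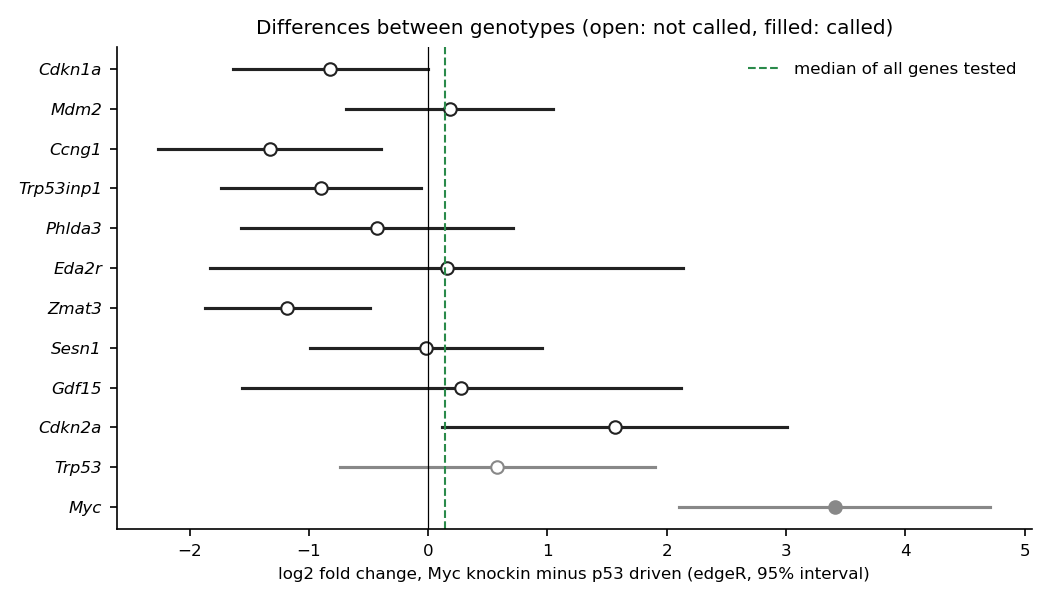
Log2 fold change (horizontal axis, Myc knockin minus p53 driven) with its 95% interval from edgeR for the 10 genes, Trp53 and Myc, with 4 p53-driven and 5 Myc-knockin tumors. Myc at 3.41 is the only filled point, meaning a gene past adjusted p of 0.05 and a fold change of 1.5, and the dashed line marks the median of all genes tested, 0.14.

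Read together, 0 of the 10 genes were called at an adjusted p under 0.05 with a fold change over 1.5, in a comparison that called 2.26% of all genes tested as higher and 3.00% as lower in the Myc-knockin tumors by edgeR. At an unadjusted p under 0.05, edgeR gave 5 of the 10 genes, namely Cdkn1a, Ccng1, Trp53inp1 and Zmat3 with lower and Cdkn2a with higher values, beside 26.8% of all genes tested. The median log2 fold change of the 9 p53 targets was -0.43 and that of all genes tested 0.14, and 6 of the 9 were negative. Among the 9 targets, M624 had the lowest value of all tumors for 4 genes and F325 the highest for 4.

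The call for some members turned on the method or the libraries used. DESeq2 called Zmat3 (log2 fold change -1.18, adjusted p = 0.00894) and Ccng1 (-1.31, adjusted p = 0.0294), where 7.24% of the genes were called lower by that tool. Between F325, F331 and F368 on one side and M624 and M664 on the other, that is without the 4 satellite libraries, edgeR called Ccng1 (-2.05, adjusted p = 0.0284), Trp53inp1 (-1.81, adjusted p = 0.0136) and Zmat3 (-1.38, adjusted p = 0.0405) lower and Cdkn2a (2.50, adjusted p = 0.0150) higher. In that comparison 12.1% of all genes were lower and 15.7% higher, and library type and genotype cannot be told apart. Without M351 and M9, the libraries with the largest satellite shares, Zmat3 was called lower (-1.51, edgeR adjusted p = 0.0273) and Cdkn2a higher (2.15, edgeR adjusted p = 0.0240), beside 4.08% and 7.90% of all genes. Zmat3 was also called with the genomic background subtracted (-1.21, edgeR adjusted p = 0.0439, 3.54% of genes lower) and without M9 alone (-1.27, edgeR adjusted p = 0.0412, 4.34% of genes lower). Without M624 and M664 no member was called by edgeR, and DESeq2 called Cdkn1a (-0.94, adjusted p = 0.0259) beside 8.34% of genes lower.

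By Rn7sk alone, the 7 tumors other than M624 and M664 are alike and hold both genotypes, and the fits to them are given above. When the satellite share is counted as well, the satellite libraries are the one library type with both genotypes, F187 against M351, M408 and M9. Within it all 3 Myc-knockin tumors were below F187 for Zmat3, Cdkn1a and Phlda3. For Trp53inp1, Gdf15 and Cdkn2a it was 2 of 3, for Ccng1 and Mdm2 1 of 3, and for Sesn1 and Eda2r 0 of 3. A single p53-driven tumor allows no test there.

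**Figure D3:**
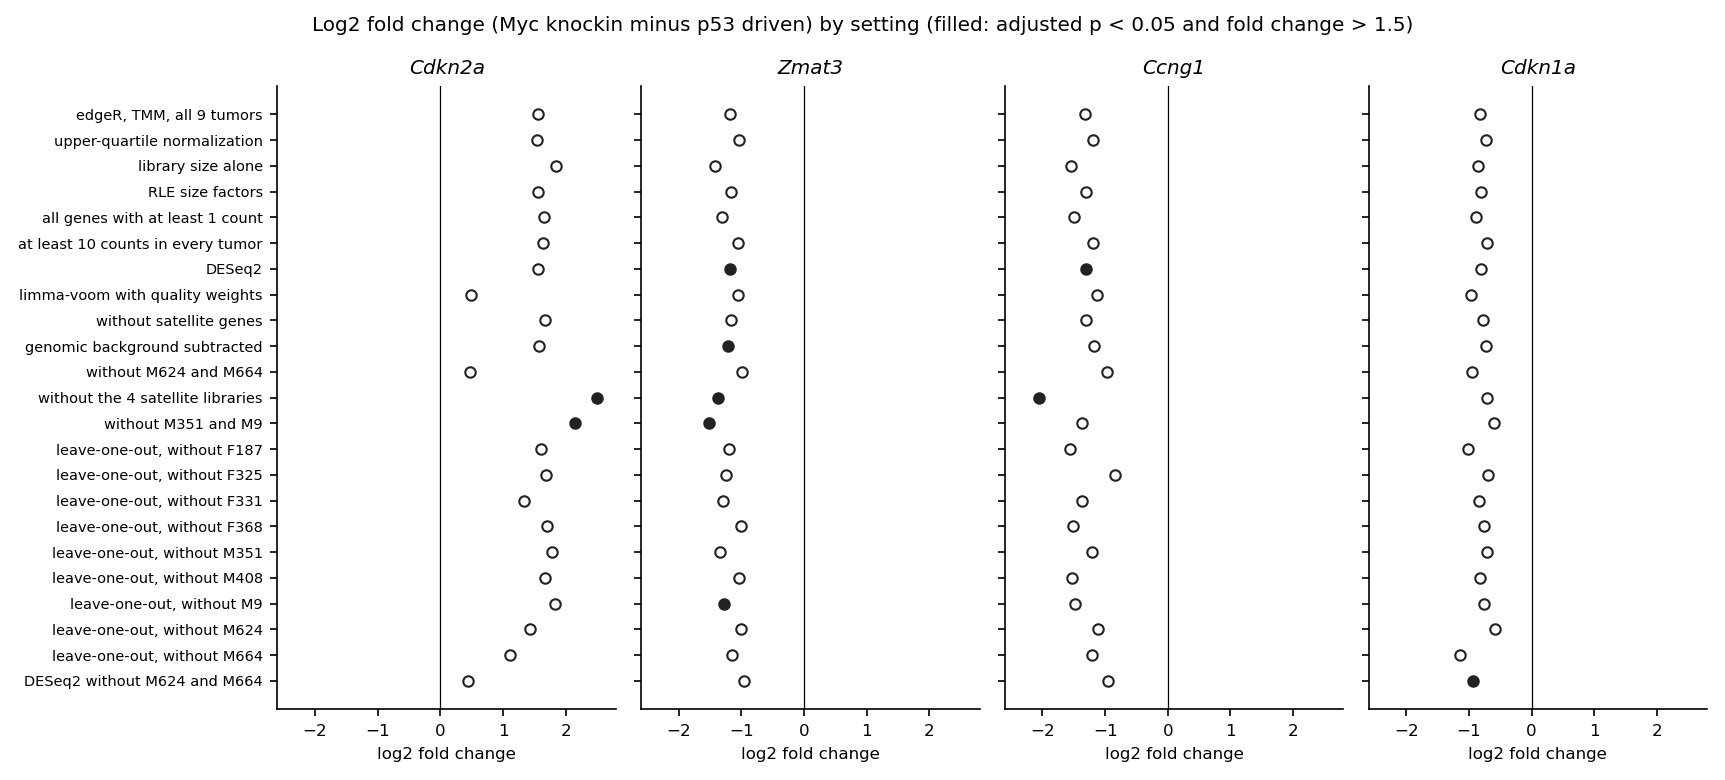
Log2 fold change (horizontal axis, Myc knockin minus p53 driven) of Cdkn2a, Zmat3, Ccng1 and Cdkn1a under each setting (vertical axis), where filled points passed an adjusted p of 0.05 and a fold change of 1.5. Zmat3, Ccng1 and Cdkn1a stayed below 0 and Cdkn2a above 0 in all 23 settings, while Cdkn2a moved between 0.44 and 2.50.

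Cdkn2a had 29.6, 32.3, 12.0 and 34.5 CPM in F187, F325, F331 and F368. In M351, M408, M9, M624 and M664 it had 27.7, 63.9, 12.0, 125 and 167 CPM. The 4 p53-driven tumors lay within a 2.87-fold range, whereas the Myc-knockin tumors spanned 14.0-fold, with M408, M624 and M664 above every p53-driven tumor and M351 and M9 inside or below their range. For Cdkn2a edgeR gave a log2 fold change of 1.56 (standard error 0.66, 95% interval 0.12 to 3.01, edgeR adjusted p = 0.157), and the two-sided exact permutation test gave p = 0.246. The fold change depended on the pair M624 and M664, without which it was 0.48 (edgeR adjusted p = 0.594). Cdkn2a was past the 3 count floor in every library, with 15 reads in M9, 45 in M351 and 139 to 3864 in the others. The reads on Cdkn2a outnumbered those on Cdkn1a only in M624, by a ratio of 3.73, and in M664, by 1.49. In the other 7 tumors this ratio, which no scaling enters, ran from 0.117 to 0.951.

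The genes beside Cdkn2a on chromosome 4 did not show the same order of tumors. Mtap, which encodes the methylthioadenosine phosphorylase of the methionine salvage pathway, had 37.9, 68.1, 41.3 and 75.6 CPM in the p53-driven tumors and 84.9, 131.7, 31.9, 118 and 83.1 CPM in the Myc-knockin tumors, with M408 the highest. Its log2 fold change was 0.69 (edgeR adjusted p = 0.288). Cdkn2b, which encodes the Cdk4 and Cdk6 inhibitor p15Ink4b, had 13.03, 8.71, 6.75 and 16.05 CPM in the p53-driven tumors and 3.69, 30.8, 3.19, 7.77 and 7.51 CPM in the Myc-knockin tumors. M408 was again the highest, while M624 and M664 were inside the p53-driven range, and the log2 fold change of Cdkn2b was -0.02 (adjusted p = 0.986, edgeR). Dmrta1, a transcription factor gene on the other side of Cdkn2b, had at most 40 reads and was below the filter. All 9 tumors had reads on Cdkn2a, Cdkn2b and Mtap, the lowest being 4 reads on Cdkn2b in M9, and in whole tumors such reads may come from any cell.

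**Figure D4:**
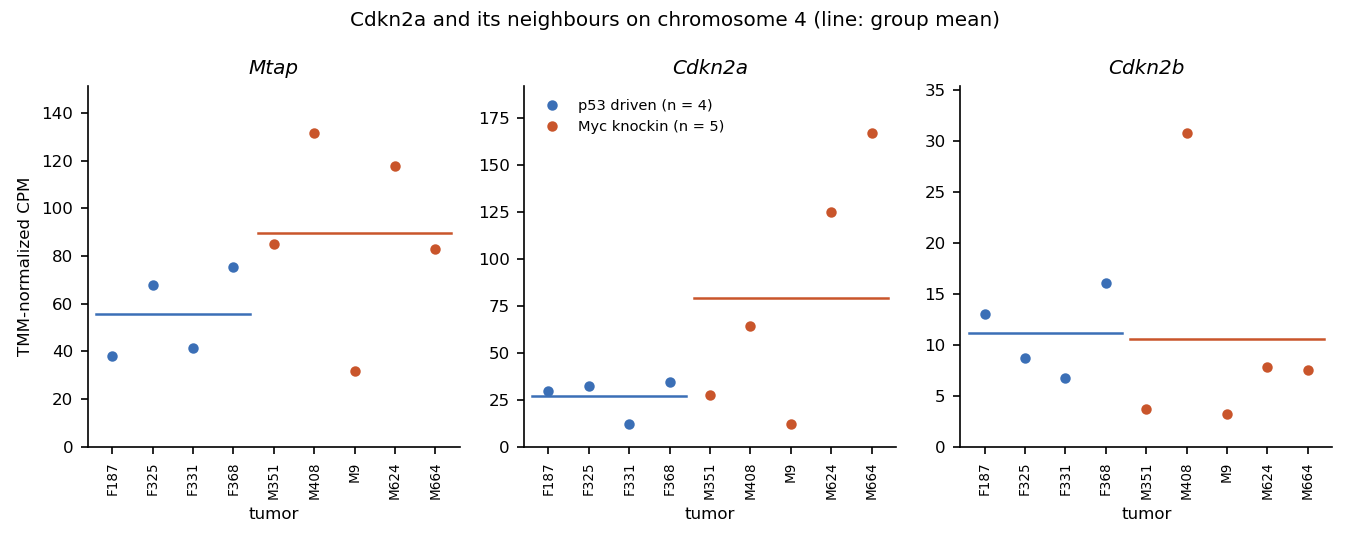
TMM-normalized CPM (vertical axis, starting at 0) of Mtap, Cdkn2a and Cdkn2b in each tumor (horizontal axis), with p53-driven tumors in blue, Myc-knockin tumors in orange and lines at the group means. M624 and M664 are the highest tumors for Cdkn2a only, and M408 is the highest for Mtap and Cdkn2b.

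Over the 9 tumors, the genes whose log2 CPM was most like that of Cdkn2a among 9538 genes with a mean of at least 10 CPM included Eif3g (Pearson r = 0.97) and Timm29 (0.96). Eif3g, a subunit of a translation initiation factor, reached 142 and 119.7 CPM in M624 and M664, with the remaining 7 tumors between 33.5 and 66.7 CPM. Timm29, of mitochondrial protein import, also had its 2 highest values in M624 and M664, and that the genes share these libraries is part of each r. The genes most like Cdkn1a were Lgals3bp (0.96), Ly6c1 (0.96) and Bmp1 (0.95). Bmp1, the protease that trims procollagen, had 202 to 806 CPM in the p53-driven tumors, 590.4 CPM in M664 and between 78.6 and 155 CPM in the remaining 4. Like Cdkn1a, it was therefore inside the p53-driven range in M664 alone among the Myc-knockin tumors. The osteoblast marker sum was likewise highest among the Myc-knockin tumors in M664, with 24597 CPM beside 2240 to 10884 CPM for the remaining 4, and its part in the Cdkn1a values was not tested.

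Per kilobase of exon, which allows genes to be compared, Cdkn1a was the most abundant of the 10 genes in the p53-driven tumors, with a median of 32.4 CPM per kilobase. Cdkn2a and Ccng1 followed at 26.4 and 25.4, then Phlda3 at 14.0, Sesn1 at 8.42, Trp53inp1 at 7.73, Mdm2 at 7.16, Zmat3 at 4.99, Gdf15 at 0.985 and Eda2r at 0.455 CPM per kilobase. The ranges of neighbors in this order overlapped, except between Zmat3, at 4.00 to 7.35, and Gdf15, at 0.234 to 1.92. In the Myc-knockin tumors Cdkn2a came first, with a median level of 54.5 CPM per kilobase and a range from 10.2 to 142, and Cdkn1a second with 14.4 and a range from 9.42 to 31.4, so that these ranges overlapped.

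Another 40 known p53 targets were looked at by function, all of which could be tested. Of these edgeR called Tnfrsf10b and Gls2, both higher in the Myc-knockin tumors, and none lower. Among all genes tested, edgeR called 2.26% higher and 3.00% lower. DESeq2 called 11 of the 40, beside 2646 of all 15365 genes tested. The median log2 fold change of the 40 was 0.13, next to 0.14 for all genes tested, and 23 were positive and 17 negative. Of the 10 apoptosis genes, 7 were positive with a median of 1.17, which was 0.30 without M624 and M664. Tnfrsf10b, the mouse death receptor for TRAIL, had 11.1 to 31.4 CPM in the Myc-knockin and 4.58 to 8.87 CPM in the p53-driven tumors (log2 fold change 1.48, edgeR adjusted p = 0.0453). Leaving out M624 and M664 gave 1.32 for it (edgeR adjusted p = 0.0592). Perp, which encodes a membrane protein of desmosomes and apoptosis, had the largest log2 fold change of that list, 2.88 (edgeR adjusted p = 0.0757, DESeq2 adjusted p = 0.00789), with 1.03 to 27.7 CPM in the Myc-knockin and 0.486 to 2.85 CPM in the p53-driven tumors. It was called by edgeR without M624 and M664 (3.35, adjusted p = 0.0455) and stood at 1.80 without the 4 satellite libraries (adjusted p = 0.245). The lowest p53-driven value of Perp was near the floor of 3 counts, 0.233 to 1.19 CPM in those libraries. The size of the Perp difference is therefore uncertain.

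Over all genes tested, 26.8% had an unadjusted p under 0.05 by edgeR, which called 2.26% higher and 3.00% lower. DESeq2 called 2646 of 15365. Of the 9 arrest and feedback genes edgeR called none, with 2 at an unadjusted p under 0.05, and DESeq2 called 1, Ppm1d. Their median was 0.38. The phosphatase gene Ppm1d, which turns off p53 signaling, had the largest difference of these, with 13.5 to 30.7 CPM against 6.71 to 10.5 CPM (log2 fold change 1.24, edgeR adjusted p = 0.0539, DESeq2 adjusted p = 0.00733). Of the 6 repair genes edgeR called none, with 2 at an unadjusted p under 0.05, and DESeq2 called 2, Pcna and Polk. The median of these was 0.19, and Pcna, the clamp of replicative polymerases, had the largest difference, 1.27 (edgeR adjusted p = 0.110, DESeq2 adjusted p = 0.0418). Without M624 and M664 the difference in Pcna was 0.56. Of the 15 genes of metabolism and other functions, 9 were negative, the median was -0.48 and edgeR called 1. This was Gls2, the glutaminase induced by p53, with 4.58 to 57.0 CPM in the Myc-knockin and 0.467 to 2.77 CPM in the p53-driven tumors (log2 fold change 4.35, standard error 0.98, edgeR adjusted p = 0.0352). Its p53-driven values stood close to the floor of 3 counts, which was 0.233 to 1.19 CPM in those libraries, and without M624 and M664 Gls2 was below the filter on low counts. It therefore entered the test through the Myc-knockin tumors, and the size of its difference is uncertain.

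Cell cycle genes that are repressed by p53 through p21 and the DREAM complex were all positive, 18 of 18, with a median log2 fold change of 1.10. Of the 18, 4 rose past the threshold and 8 were higher without overlap, where 2.26% and 5.41% of all genes tested did so. Bub1b, of the spindle checkpoint, had 63.4 to 118 CPM in the Myc-knockin and 25.9 to 38.3 CPM in the p53-driven tumors (log2 fold change 1.35, edgeR adjusted p = 0.0279). Aurkb, the kinase of the chromosomal passenger complex, had 9.56 to 60.7 CPM against 5.11 to 7.62 CPM (2.23, edgeR adjusted p = 0.0380). Ccnb1, the mitotic cyclin B1, and Birc5, which encodes survivin, had log2 fold changes of 2.13 and 1.66 (edgeR adjusted p = 0.0400 and 0.0487). Without M624 and M664, the median was 1.13 and edgeR called only Bub1b (1.26, adjusted p = 0.0380).

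Upstream of p53, 15 of 16 family members and regulators were tested, and Trp73 was below the filter. The median log2 fold change was 0.16, and edgeR called 1, Usp10, the deubiquitinase that stabilizes p53. It had 44.9 to 108 CPM in the Myc-knockin and 16.05 to 33.2 CPM in the p53-driven tumors (log2 fold change 1.57, edgeR adjusted p = 0.0288), a difference that edgeR put at 1.35 without M624 and M664 (adjusted p = 0.0442). Of the 9 nucleolar partners of Arf and Mdm2, 8 were positive with a median of 1.14, 5 were higher without overlap and edgeR called 2, beside 5.41% and 2.26% of all genes tested. Npm1, which encodes the nucleophosmin that holds Arf in the nucleolus, had 433 to 728 CPM against 99.1 to 175 CPM (log2 fold change 2.27, edgeR adjusted p = 0.0160), and 2.29 without M624 and M664 (edgeR adjusted p = 0.0241). Ncl, encoding nucleolin, had 430.2 to 1443 CPM against 255 to 374 CPM (1.67, edgeR adjusted p = 0.0449), and 1.597 without this pair (edgeR adjusted p = 0.0650).

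As background for the next 2 lists, 26.8% of all genes tested had an unadjusted p under 0.05 by edgeR. DESeq2 called 2646 of the 15365. Of the 16 known regulators of Cdkn2a edgeR called none, with 3 at an unadjusted p under 0.05, and DESeq2 called 2, Id1 and Kdm2b. Their median log2 fold change was 0.06. The T-box repressor gene Tbx3 had the largest difference, with 1.68 to 44.5 CPM in the Myc-knockin and 1.95 to 14.0 CPM in the p53-driven tumors (log2 fold change 1.87, edgeR adjusted p = 0.169). Without the 4 satellite libraries the difference in Tbx3 was 0.23 (edgeR adjusted p = 0.891). Among the 7 genes for inhibitors of cyclin-dependent kinases, 5 were negative, and edgeR called 1, Cdkn1c, which encodes p57Kip2. It had 3.98 to 25.5 CPM in the Myc-knockin and 0.519 to 4.74 CPM in the p53-driven tumors (log2 fold change 2.99, edgeR adjusted p = 0.0411). The lowest p53-driven value was near the floor of 3 counts, 0.233 to 1.19 CPM in those libraries. The size of the Cdkn1c difference is therefore uncertain. The log2 fold change of Cdkn1c was 2.41 without M624 and M664 (edgeR adjusted p = 0.101), where Cdkn2c was called instead, and DESeq2 called both.

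**Figure D5:**
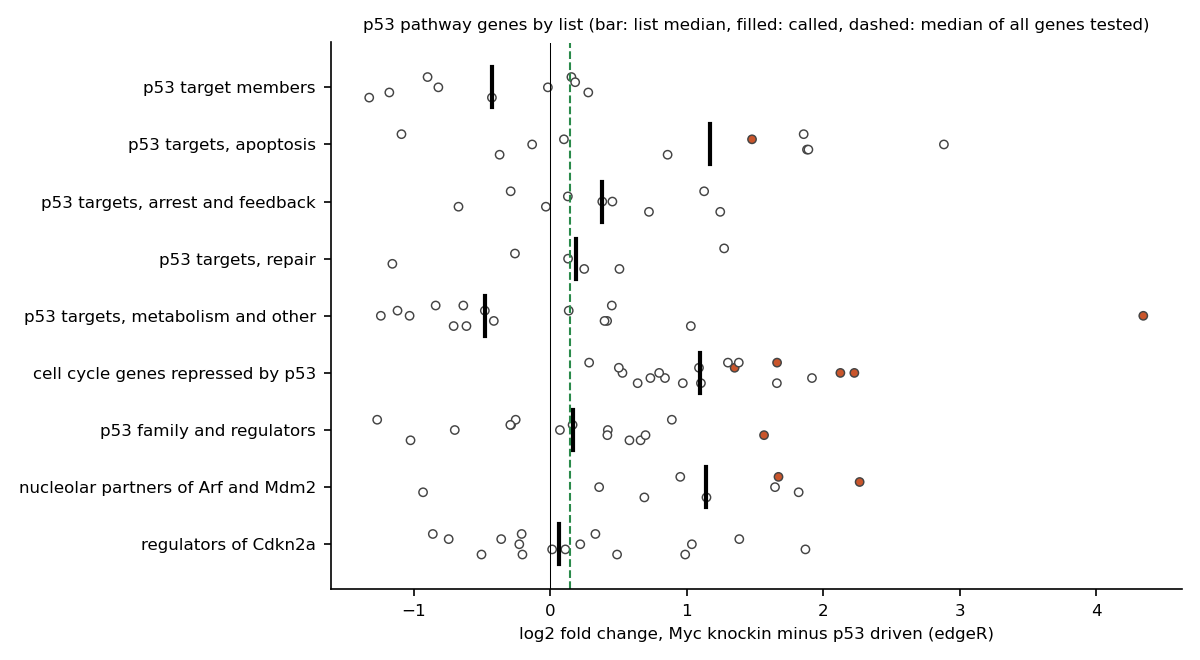
Log2 fold change (horizontal axis, Myc knockin minus p53 driven, edgeR) of each tested gene in 9 lists (vertical axis), with bars at list medians and filled points for genes called. The median is -0.43 for the 9 p53 targets followed here and 1.10 for the cell cycle genes repressed by p53, and the dashed line is the median of all genes tested, 0.14.

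Markers of other cell types were summed in each tumor, and those of osteoclasts and leukocytes did not overlap between the groups. Of all single genes tested, 7.54% were lower without overlap and edgeR called 3.00% lower. The 6 osteoclast markers summed to 1386 to 8110 CPM in the p53-driven and 59.0 to 920.0 CPM in the Myc-knockin tumors, and 5 of the 6 fell past the threshold. The 6 leukocyte markers summed to 415 to 803 CPM and 124 to 341 CPM, with 1 called lower. Among them Coro1a went the other way, with a log2 fold change of 1.29. The 9 macrophage markers summed to 632 to 1192 CPM and 233 to 817 CPM, with 2 called lower. Of these 9, C1qa, C1qb and Fcgr1 were positive, at 0.17, 0.56 and 0.65. The 5 endothelial markers summed to 316 to 446 CPM and 75.7 to 395 CPM, with none called and only Tek positive, at 0.01. Red cell markers summed to 205 CPM in M624 and 755 CPM in M664, the libraries with the highest Cdkn2a, and to between 3.16 and 31.7 CPM in the other tumors. The globin genes Hbb-bs and Hba-a1 had 2474 to 8995 reads in this pair and at most 1 elsewhere, and their part in the Cdkn2a values was not tested. Fat cell markers summed to at most 23.4 CPM. Dcstamp, an osteoclast fusion gene, was at 0 counts in M408. The part of these cells in the values of Cdkn1a, Zmat3, Ccng1 and Trp53inp1 was not tested.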

How the data were processed

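By the paper's methods, whole-tumor RNA from 4 p53-driven and 5 Myc-knockin mice was enriched with oligo-dT probes, made into stranded libraries and sequenced. Outside the satellite genes, the nonpolyadenylated Rn7sk had 5.33 and 9.32 CPM in M624 and M664 and at least 8858 CPM in every other library. Whether all libraries were enriched alike was not tested. The authors trimmed reads with Trim Galore, mapped them with STAR to mm10 and deposited raw counts per gene from featureCounts, without normalization. The handling of strand and multimapped reads is not given in the sources used here. Columns were assigned to groups by the names in the study's supporting data and, for M351, M9 and M664, by the letter M.

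Counts were fitted in R 4.3.3 with edgeR 4.0.16 (TMM, filterByExpr with a minimum count of 10, glmQLFit and glmQLFTest on group alone), and p values were adjusted by Benjamini-Hochberg over 15365 genes. Calls required a fold change above 1.5 together with an adjusted p below 0.05, the thresholds of the study's methods. CPM are TMM normalized, with a prior count of 2 added for log2 CPM. Exact permutation tests were two-sided over all arrangements of the tumors. Background reads per kilobase came from 1779 chemosensory receptor genes. Alternatives were other scalings and filters, DESeq2 1.42.0, limma-voom (limma 3.58.1), other thresholds, and leaving out libraries. Positions and exon lengths are from GENCODE M21, which holds 55034 of the 55367 identifiers.

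The 10 genes, lists and tests were chosen with earlier results of these data known. Named genes are the 10 members, Myc and Trp53, genes of the lists that were called or had the largest change of their list, the neighbors of Cdkn2a, and the 3 genes most like Cdkn2a and Cdkn1a each, 1 of which is not reported here. Other genes were named after their values were seen. Total counts ran from 2716322 to 17073285 per tumor, and floors of 3 counts and expected background reads cover counting error only. The code was tested on simulated data.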

Additional observations from a re-analysis of the deposited data

Results flagged for a closer look

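Dixon's criterion for a sample far from the others of its group was applied to the 10 genes, Trp53 and Myc in each genotype, 24 groups of values in all, of which chance marks about 1 in 20. It marked 2. Phlda3 had 43.7 CPM in M664, next to 15.1 CPM in the second highest Myc-knockin tumor, a gap of 0.755 of the group's range. Eda2r had 24.3 CPM in F325, next to 4.498 CPM in the second highest p53-driven tumor, a gap of 0.843 of the range. M664 is one of the pair of libraries with little Rn7sk, and F325 had the highest sum of skeletal muscle markers, 3725 CPM. The part of these library differences in both values was not tested.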

How the results depend on the processing

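No paired analysis was possible because the columns of the table carry no replicate numbers that could pair tumors across the groups. No member was called higher in 22 of 24 alternatives, and 1 was called higher without the 4 satellite libraries and without M351 and M9. No member was called lower in 18 of 24, against 2 under DESeq2, 1 with genomic background subtracted, 3 without the 4 satellite libraries, 1 without M351 and M9, and 1 under DESeq2 without M624 and M664 (added after seeing the data). With single tumors left out, members called higher stayed at 0 and those called lower ranged from 0 to 1. Myc was not called when scaled by library size alone (3.63, edgeR adjusted p = 0.0659), and leaving out 1 tumor at a time gave 3.15 to 3.66, with adjusted p of 0.0813, 0.0782 and 0.0909 without F325, F331 and F368. It was 2.34 with limma-voom, 2.60 without M624 and M664 and 4.11 without the 4 satellite libraries, called in each.

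Over all genes, 809 were called, against 136 with library size alone, 494 among all genes with at least 1 count, 1316 when every tumor needed at least 10 counts, 2646 by DESeq2, 1663 by limma-voom, 494 without the satellite genes, 4595 without the 4 satellite libraries, 1926 without M351 and M9, 2052 by DESeq2 without M624 and M664, and 5 to 1588 with single tumors left out, the lowest being 8, 6 and 5 without F325, F331 and F368 and the highest 1588 without M9. Calls were 348 higher and 461 lower, and 626 higher and 345 lower with upper-quartile normalization. The median log2 fold change of all genes was 0.24 with that normalization, 0.97 among all genes with at least 1 count and 0.03 with library size alone.

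Cdkn1a, Ccng1, Trp53inp1, Zmat3 and Cdkn2a kept their sign in 22 of 22 alternatives. Mdm2 turned to -0.13 with limma-voom, -0.038 without M624 and M664 and -0.057 by DESeq2 without this pair. Phlda3 turned to 0.39 and Eda2r to -0.87 without the 4 satellite libraries. Eda2r was also -0.13 with library size alone, -0.060 with all genes of at least 1 count, -0.038 without M351 and M9, and -0.23 to 2.04 with single tumors left out. Sesn1 was 0.090 with upper-quartile normalization, 0.11 when every tumor needed at least 10 counts, 0.028 without the satellite genes, 0.084 with background subtracted, 0.14 without the 4 satellite libraries, 0.038 without M351 and M9, and -0.41 to 0.31 with single tumors left out. Gdf15 ran from -0.17 to 0.69 and Trp53 from -0.072 to 0.81 with single tumors left out. The causes were not tested. Eda2r, Gdf15 and Trp53 could not be tested under that minimum of 10 counts, nor Gdf15 without M624 and M664.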
